A study of Mus musculus with 10 samples.

Results

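The genes of the RNA decay machinery were taken from a table of RNA synthesis, processing and degradation rates in cultured mouse cortical neurons. They were chosen by gene symbol alone, as families of the exosome (Exosc, Skiv2l), CCR4-NOT and the other deadenylases (Cnot, Pan, Parn), decapping (Dcp, Edc, Lsm, Xrn), nonsense-mediated decay (Upf, Smg), Argonaute and Pumilio proteins, poly(A)-binding proteins and numbered CCCH zinc finger proteins (Zc3h). The rule found 69 of the 8590 genes in the table, and the rule itself uses no measured value. The Zc3h group is a family by name: Zc3h12b and Zc3h12c belong to the Regnase family of RNA-cleaving proteins, while several others have roles outside decay.

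Neurons came from cortices of embryonic day 18 and were kept for 14 days in vitro. Wild-type cells and cells lacking Fmr1 (Fmr1-KO) carried the same strain label, FVB.129P2-Pde6b+ Tyrc-ch/AntJ. For 20 or 60 min the cells received 5-ethynyluridine (5-EU) at 200 µM, which new RNA takes up and which allows its pull-down. Each genotype had 1 library of each labelling time, so n = 2 per genotype throughout, and the labels do not say whether the 2 came from separate cultures. The p-values below therefore measure only the spread between these libraries, which may be technical: that between labelling times or, with labelling time as a block, that of the genotype difference across times.

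In a eukaryotic cell most messenger RNAs first lose their poly(A) tail, which Pan2-Pan3, CCR4-NOT and Parn shorten. The body is then either decapped by Dcp2 with its Edc and Lsm cofactors and digested by Xrn1 from the 5′ end, or degraded by the exosome from the 3′ end. The Upf and Smg proteins send transcripts with premature stop codons into these routes, and Argonaute proteins recruit deadenylases to microRNA targets. Neurons use the same enzymes, and FMRP, the RNA-binding protein encoded by Fmr1, binds many neuronal messenger RNAs. All values here are rates of the transcripts that encode these proteins, not activities of the proteins.

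The rates are printed in the units of the table, whose time unit is not stated. A degradation rate is the fraction of mature RNA lost per unit time under the model, a processing rate the same for precursor RNA, and a synthesis rate the amount of RNA made. The depth behind each rate is unknown. Synthesis divided by degradation gave the same quotient (within 0.001 log2 units) in the 2 wild-type libraries for 60 of 65 members, against 0 of 42 in the knockout, where the median difference was 0.24 log2 units. For these 60 members the wild-type degradation rates differ between times only as the synthesis rates do, so their spread is no independent measure of error. Synthesis divided by processing gave the same wild-type quotient for 59 of 59 members, with a median difference of 0.018 log2 units in the knockout. The wild-type spread of processing rates is likewise no independent measure of error. The targeted gene, Fmr1, had degradation rates of 0.0774 and 0.0672 (wild type, 20 and 60 min) and 2.58 and 2.66 (knockout), and synthesis rates of 0.810 and 0.692 against 2.06 and 1.56. The synthesis rate of Fmr1 was thus not lower in the libraries labelled Fmr1-KO, and every direction below rests on those labels. Synthesis divided by degradation was lower there for Fmr1, at 0.800 and 0.586 against 10.5 and 10.3 in wild type. Of the marker genes looked up, 3 of 10 for neurons (Rbfox3, Gad2 and Nefl), 3 of 7 for astrocytes, 4 of 7 for the oligodendrocyte lineage, 0 of 5 for microglia and 0 of 3 for endothelium were rows of the table. The labelled cell type could thus be checked against few markers. In bulk samples, fewer cells of a type and less RNA per cell cannot be told apart.

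The synthesis rate is the readout nearest to the promoter, so promoter windows are shown for the members with the highest and the lowest mean log2 synthesis rate in wild type, among those of the 57 members matched to RefSeq promoters of GRCm38.p6 that had both rates. They are Exosc6, a subunit of the exosome ring, at 3.02 and 3.33, and Pan2, the catalytic subunit of a deadenylase, at 0.279 and 0.0818 (20 and 60 min). Each line gives the 120 bases before the annotated start, with CpG dinucleotides in capitals.
Exosc6 promoter, plus strand, chr8:111056219-111056338: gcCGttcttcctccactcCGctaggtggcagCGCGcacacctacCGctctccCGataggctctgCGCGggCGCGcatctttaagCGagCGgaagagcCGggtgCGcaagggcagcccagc
Pan2 promoter, plus strand, chr10:128303215-128303334: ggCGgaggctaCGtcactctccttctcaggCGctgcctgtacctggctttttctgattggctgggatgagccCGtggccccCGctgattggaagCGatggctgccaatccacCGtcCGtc
The Exosc6 window held 14 CpG and the Pan2 window 8. Over the 250 bases before the start, the median was 21 CpG in 53 members with wild-type synthesis rates, against 18 in 6184 genes of the rate table and 6 in all 27025 promoters. The number of CpG ranked weakly with wild-type synthesis rate (Spearman rho = 0.19 over the 53 members and 0.15 over the 6184 genes). On either strand of the same windows, TATAAA (the TATA box) occurred in 0 of 57 members, 5.29% of 6677 rate-table genes and 13.0% of all promoters. CCGGAAG, a match to ETS factor sites, occurred in 9 members (15.8%), 15.0% of rate-table genes and 7.07% of all promoters. CCAAT occurred in 18 members (31.6%), 36.4% of rate-table genes and 34.5% of all promoters, and the palindromic NRF1 motif in 2 members, Upf1 and Zc3h12b (3.51%, against 1.77% and 0.777%). These are letter matches in a short window.

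Whether a rate was listed at all differed between genotypes. A degradation rate was listed for 65 members in each wild-type library, and for 45 (20 min) and 44 (60 min) in the knockout. Of the 65 members with both wild-type rates, 19 (29.2%) had no knockout rate, against 1546 of 7914 genes in the whole table (19.5%). The converse held for 1 member, Lsm2, a subunit of the Lsm ring, with knockout rates of 0.926 and 0.772. For Exosc1, Exosc3 and Lsm10 no library had a rate. Rates were listed in both wild-type and 1 knockout library for Dcp1a, Exosc9, Xrn2, Zc3h10 and Zc3h13.

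The share without a knockout rate was highest for decapping among the roles with several genes, a difference that was not tested. In the decapping group 7 of 13 members with both wild-type rates had none in the knockout: the decapping enzyme Dcp2, its partner Dcp1b, the scavenger decapping enzyme Dcps, and Lsm3, Lsm4, Lsm7 and Lsm14a. In nonsense-mediated decay it was 4 of 10, among them the central helicase Upf1, the kinase Smg1 that phosphorylates it, and the adaptor Smg5. In deadenylation it was 4 of 12, with both catalytic paralogs Cnot7 and Cnot8, the subunit Cnot3, and Pan2. In the exosome and its helicases it was 1 of 10 (Exosc5), and in the Zc3h group 1 of 11 (Zc3h15). The remaining 2 were the Pumilio protein Pum2 and Pabpc5, an X-linked poly(A)-binding protein. Dcps did have a knockout synthesis rate at 60 min (0.660), while the other 18 lacked both. Among 59 cofactors of decay that the symbol rule does not match (a list from textbook knowledge, such as Ddx6, Tnrc6 and Dis3 genes), 6 of 53 (11.3%) lacked a knockout rate.

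**Figure D1:**
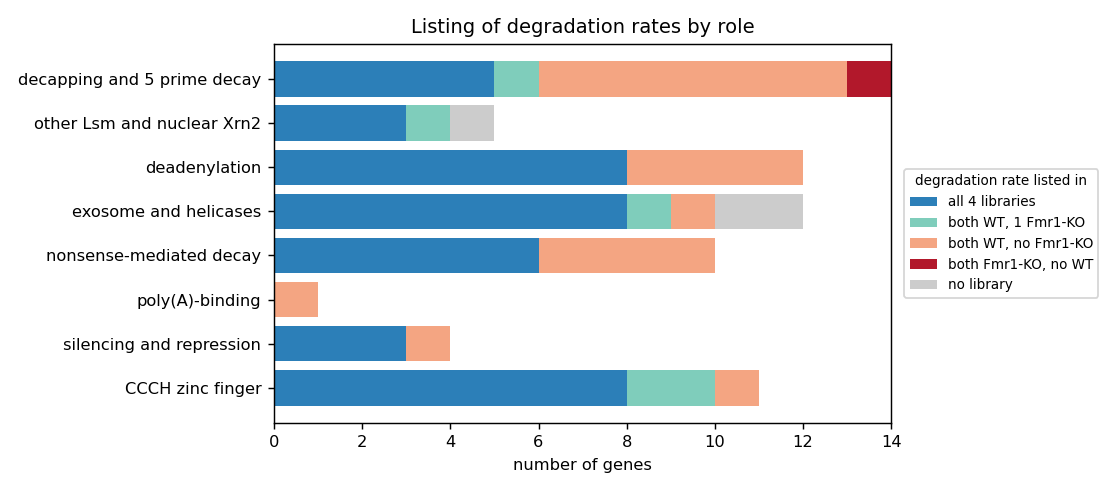
Number of member genes (horizontal axis) by role (vertical axis), coloured by the libraries in which a degradation rate was listed. The decapping group has 7 genes with rates in both wild-type libraries and none in the knockout, and the exosome group has 1.

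In wild type, the 19 members without a knockout rate spanned mean degradation rates of 0.0200 to 0.367 (median 0.101) and mean synthesis rates of 0.181 to 2.44 (median 0.805). The 41 members with all 4 rates spanned 0.0273 to 0.905 (median 0.130) and 0.286 to 3.83 (median 1.07). Both sets overlapped over most of their range. The median GC content of their transcripts was 48.5% and 48.3%.

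The members' degradation rates in wild type lay close to those of all genes. Their median was 0.129 at 20 min and 0.120 at 60 min, against 0.111 at both times over the table. In the knockout it was 0.213 and 0.208, against 0.190 and 0.195. The slowest member in wild type was Lsm4, an Lsm ring subunit, at 0.0128 and 0.0273, at percentile 0.21 of the genes in wild type. Skiv2l, the helicase of the cytoplasmic exosome, followed at 0.0428 and 0.0119. The fastest were Zc3h10 (0.592 and 1.10), Zc3h12c (0.416 and 1.39) and the decapping activator Dcp1a (0.281 and 1.52). All 3 had the higher value at 60 min.

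Degradation rates of 41 members could be compared between genotypes. By limma with Benjamini-Hochberg adjustment over all 5716 genes tested, 8 members rose in the knockout and 1 fell at an adjusted p under 0.05, and 15 had an unadjusted p under 0.05 (background 43.1%). Over all genes 20.5% were called higher, 2.57% lower and 23.1% in either direction, so the members' 9 of 41 was close to the background. The median log2 change was 0.49 over the members and 0.65 over all genes. At 20 min the members' median was 0.35 and at 60 min 0.71, against 0.73 and 0.58 over all genes. Both knockout rates lay above both wild-type rates in 19 members (background 52.6%) and below both in 9 (background 16.5%). The change had opposite signs at the 2 times in 4 members, and in 665 of all 5716 genes.

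The count depended on the scaling between libraries and on single libraries. Centring each library on its median, which removed a shift of 0.86 log2 units, left 1 call by limma, the lower one in Exosc4 (background 0.560% higher and 1.05% lower), and the members' median became -0.36, that of all genes -0.20. With labelling time as a replicate block 13 members were called higher and 2 lower (background 38.2% and 9.76%), and with the block and centring 3 higher and 8 lower (background 13.9% and 22.4%). Relative to the shift, none of the 8 rises was thus called without the block, and with it 3 of them were, Ago2, Cnot2 and Exosc8. Left out one at a time, the lone library of a genotype being assumed to vary like the others, the libraries changed the calls as follows. Omitting wild type at 60 min gave 0 calls by limma (background 0.0175%), with 15 members at an unadjusted p under 0.05 (background 37.8%). Omitting wild type at 20 min gave 3 (Exosc4, Exosc8 and Exosc10, background 19.5%). Omitting the knockout at 20 min gave 2, Exosc4 and Skiv2l2, both lower (background 2.62%). Omitting the knockout at 60 min gave Exosc4 and Xrn1, both lower (background 2.26%). Quantile normalization gave 2 calls, both lower (background 10.4%), a pseudocount 14 (33.2%), an eBayes trend 13 (28.1%), and dropping genes of low rate 12 of 32 members (32.1%).

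**Figure D2:**
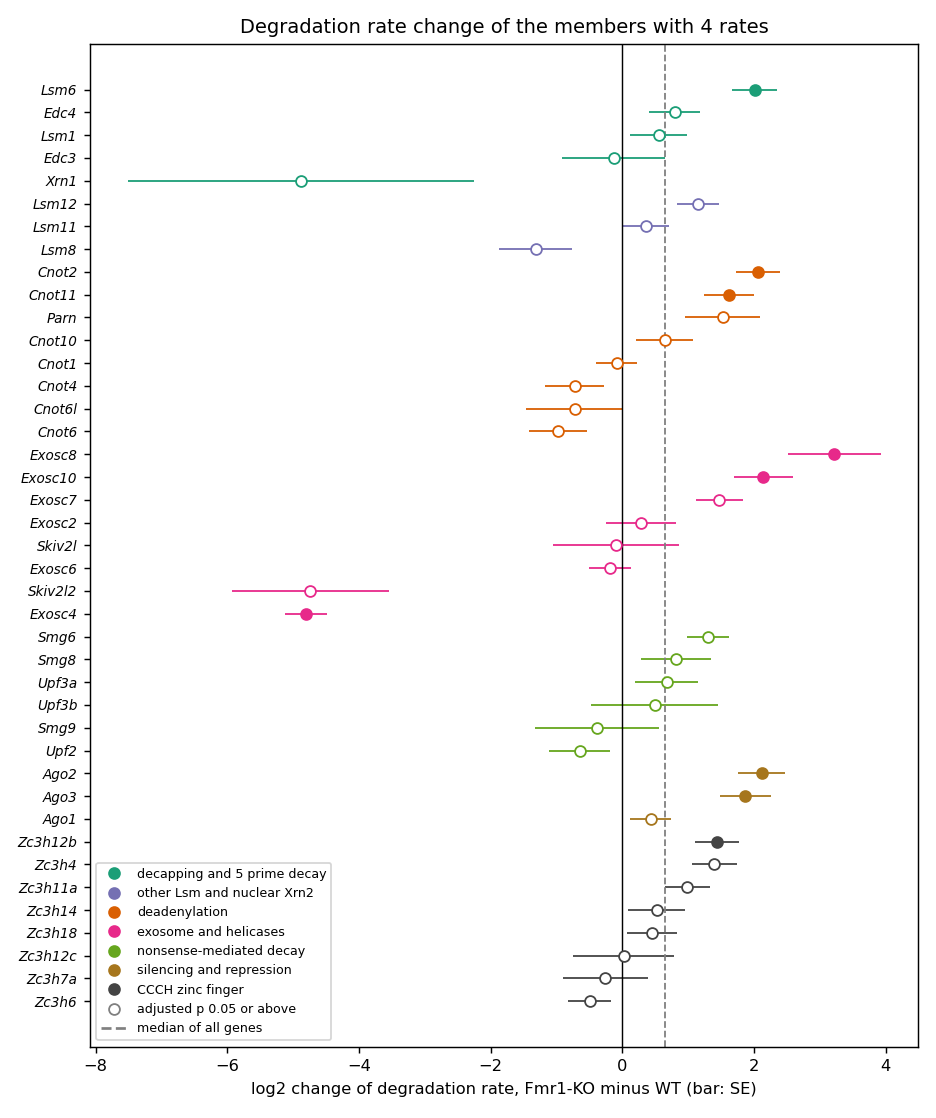
Log2 change of the degradation rate, knockout minus wild type (horizontal axis, bars SE from limma, n = 2 libraries per genotype), for the 41 members with 4 rates, coloured by role. Filled points have an adjusted p under 0.05, and the dashed line is the median of all genes, 0.65: of the 9 filled points 8 lie to its right, and Exosc4 lies at -4.80.

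Of 8 exosome and helicase genes tested, Exosc8 and Exosc10 rose, Exosc4 fell and 5 did not pass (background 20.5% higher and 2.57% lower). The exosome is a ring of subunits with a cap, to which the nuclease Exosc10 attaches in the nucleus. Exosc4, a ring subunit (chromosome 15, 76327397 to 76330677, plus strand, GRCm38), had degradation rates of 0.257 and 0.236 (wild type, 20 and 60 min) and 0.00844 and 0.00929 (knockout). The genotypes were far apart: 0.247 ± 0.0148 against 0.00886 ± 0.000599 (SD, n = 2). Synthesis divided by degradation was 7.85 in both wild-type libraries, so the wild-type spread is no independent measure of error. The knockout values were among the lowest, at percentile 0.91 of the genes in the knockout. The log2 change was -4.80 (SE 0.32, limma adjusted p = 0.0235). It stayed called with centring (adjusted p = 0.0497), and the adjusted p was 0.0642 when wild type at 60 min was left out. The authors' deposited table gave no test for it. Its synthesis rate was 2.02 and 1.85 (wild type) and 1.57 and 1.59 (knockout).

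Exosc8 and Exosc10 went the other way. Exosc8, also a ring subunit (chromosome 3, 54728678 to 54735393, minus strand), had degradation rates of 0.192 and 0.0563 (wild type) and 1.19 and 0.792 (knockout). The wild-type values differed over 3-fold between times, yet both knockout values were higher. The log2 change was 3.22 (SE 0.70, limma adjusted p = 0.0430). With single libraries left out it ran from 2.34 (without wild type at 60 min) to 4.11 (without wild type at 20 min), and it was called only in the latter of these 4 fits. Exosc10 (chromosome 4, 148558429 to 148582401, plus strand) went from 0.0887 and 0.0468 to 0.313 and 0.259 (log2 change 2.14, SE 0.45, limma adjusted p = 0.0395).

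The other exosome genes were not called. Exosc7, in the ring, had 0.167 and 0.198 (wild type) versus 0.594 and 0.430 (log2 change 1.47, limma adjusted p = 0.0521, and 0.0292 with labelling time as a block). Exosc2, a cap subunit, had 0.223 and 0.128 against 0.287 and 0.147. Exosc6 had 0.273 and 0.301 against 0.261 and 0.241. Exosc2 overlapped between genotypes, and Exosc6 was slightly lower in both knockout libraries. Exosc9 had 0.189 and 0.167 in wild type, 0.00192 in the knockout at 20 min and no rate at 60 min.

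The values of the 2 exosome helicases are given side by side, without a test of their difference. Skiv2l2 (annotated as Mtrex, chromosome 13, 112867418 to 112927398, minus strand), which feeds RNA to the nuclear exosome, had 0.157 and 0.104 (wild type) versus 0.0152 and 0.00151 (knockout). Both knockout values were lower, but they lay 10-fold apart, and the log2 change of -4.74 (SE 1.19) had a limma adjusted p of 0.0545. With labelling time as a block it was 0.0163. The authors' deposited table, which did not test the same set of values, gave a log2 change of -3.15 with an adjusted p of 0.0132. The change was -6.40 without the knockout at 20 min (limma adjusted p = 8.6e-05) and -3.07 without that at 60 min (0.194). Skiv2l, its cytoplasmic counterpart, had 0.0428 and 0.0119 against 0.0412 and 0.0109. Its genotypes overlapped at a 4-fold difference between labelling times, with a log2 change of -0.09 (SE 0.96). The authors' deposited table gave 0.73 (adjusted p = 0.285), of opposite sign.

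Among the exonucleases that work from the 5′ end, single knockout libraries had very low rates. Xrn1, the main cytoplasmic one (chromosome 9, 95954760 to 96057803, plus strand), had 0.0966 and 0.170 in wild type, with knockout values of 0.000305 (20 min) and 0.0620 (60 min). Both knockout values were lower than both wild-type values, but they lay over 200-fold apart. The log2 change of -4.88 (SE 2.63) was not called (limma adjusted p = 0.228). It was -1.05 with only the 60 min knockout library kept, and -8.71 with only the 20 min one, when it was called. The authors' deposited table gave -0.78 (adjusted p = 0.300). Xrn2, the nuclear enzyme, had 0.171 and 0.0604 in wild type and 0.0120 in the knockout at 20 min only.

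Very low rates were listed more often in the knockout, a difference that was not tested. A degradation rate under 0.013, a limit chosen after the values were seen, occurred in 1 of 65 members in each wild-type library (Lsm4 at 20 min, Skiv2l at 60 min). In the knockout it occurred in 5 of 45 members at 20 min (Xrn1, Exosc9, Zc3h13, Exosc4 and Xrn2) and in 3 of 44 at 60 min (Skiv2l2, Exosc4 and Skiv2l). Over all genes the wild-type shares were 0.0504% (20 min) and 0.841% (60 min), and the knockout shares 3.23% and 3.18%. Exosc4 was the member listed under the limit in both knockout libraries. Zc3h13, which acts in the m6A methylation complex, had 0.119 and 0.0911 in wild type and 0.00365 in the knockout at 20 min, with no rate at 60 min.

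**Figure D3:**
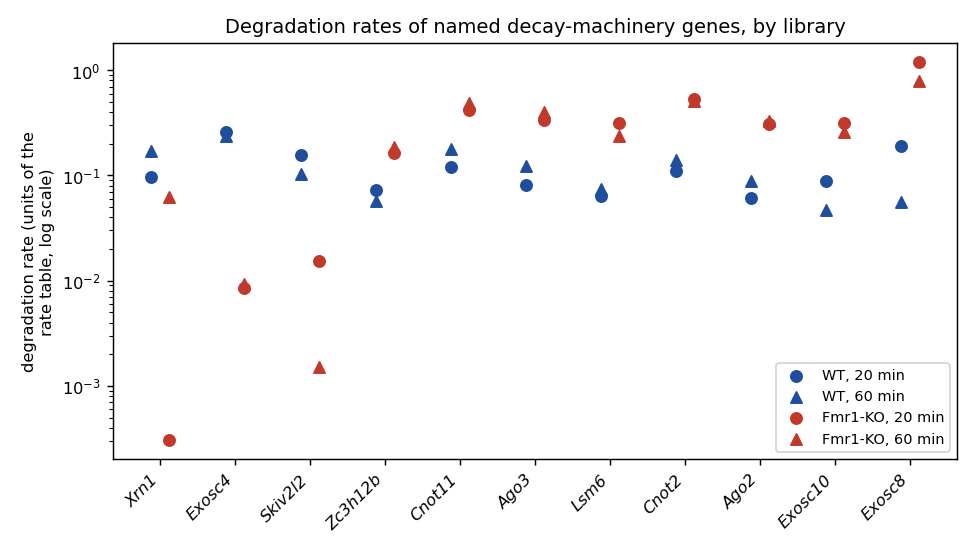
Degradation rate (vertical axis, log scale, units of the rate table) of 11 members in each of the 4 libraries, blue for wild type and red for Fmr1-KO, circles for 20 min and triangles for 60 min. The values of Exosc4 lie close together within each genotype (0.257 and 0.236 against 0.00844 and 0.00929), while the knockout values of Xrn1 and Skiv2l2 are far apart. The wild-type agreement of Exosc4 only repeats that of its synthesis rates.

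In the deadenylation group, 2 of 8 genes tested rose and 6 did not pass, near the background of 20.5% higher. Cnot2, a core subunit of CCR4-NOT (chromosome 10, 116485161 to 116581511, minus strand), had degradation rates of 0.110 and 0.142 (wild type) and 0.528 and 0.512 (knockout). The knockout values exceeded both wild-type values over 3-fold (log2 change 2.05, SE 0.33, limma adjusted p = 0.0269). Cnot11, an accessory subunit (chromosome 1, 39534992 to 39546889, plus strand), went from 0.119 and 0.179 to 0.417 and 0.485 (log2 change 1.62, SE 0.38, limma adjusted p = 0.0474). Cnot10, which pairs with Cnot11 in the complex, had 0.150 and 0.0831 against 0.187 and 0.162 (log2 change 0.64, SE 0.43). Parn, a separate poly(A) ribonuclease, had 0.148 and 0.0632 against 0.353 and 0.221, with a limma adjusted p of 0.116 and, with the block, 0.0242.

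The scaffold Cnot1 and the catalytic subunits with rates in all 4 libraries were not called. Cnot1, which holds the complex together, had 0.0889 and 0.0883 (wild type) versus 0.0805 and 0.0868. The log2 change was -0.08 (SE 0.31). The catalytic paralogs Cnot6 and Cnot6l had log2 changes of -0.97 (SE 0.44) and -0.73 (SE 0.73), and neither passed (limma adjusted p = 0.169 and 0.489). Cnot6 had 0.146 and 0.187 against 0.0626 and 0.113, without overlap, while Cnot6l overlapped between genotypes. Cnot4, a ubiquitin ligase, had 0.114 and 0.208 against 0.109 and 0.0798. With the block and centring Cnot6 and Cnot6l were called lower (limma adjusted p = 0.0314 and 0.0323), and Cnot2 was called higher (0.0443).

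In the decapping group, 1 of 5 genes tested rose (background 20.5%). Lsm6, a subunit shared by the cytoplasmic and nuclear Lsm rings (chromosome 8, 78804865 to 78821140, minus strand), went from 0.0632 and 0.0742 to 0.317 and 0.240. The log2 change was 2.01 (SE 0.35, limma adjusted p = 0.0286). Lsm1, which defines the cytoplasmic ring, had 0.349 and 0.221 against 0.333 and 0.501, so the genotypes overlapped. The enhancers of decapping Edc3 and Edc4 had log2 changes of -0.13 (SE 0.78) and 0.79 (SE 0.39), neither called. Lsm8, which takes the place of Lsm1 in the nuclear ring, had 0.207 and 0.233 against 0.141 and 0.0551 (log2 change -1.32, SE 0.56, limma adjusted p = 0.148, and 0.0415 with the block and centring). Lsm12 had 0.163 and 0.152 against 0.352 and 0.346, without overlap (log2 change 1.15, SE 0.31). Its limma adjusted p was 0.0637, and 0.0337 with the block. Lsm11, of the U7 particle that processes histone RNA, had 0.0636 and 0.0640 against 0.0700 and 0.0960.

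All 3 Argonaute genes tested had higher values in the knockout (background 52.6%), and 2 were called (background 20.5%), but with centring the change of Ago1 turned to -0.43. Ago2, the Argonaute that can cleave its target (chromosome 15, 73095844 to 73184935, minus strand), went from 0.0611 and 0.0879 to 0.309 and 0.326. The log2 change was 2.12 (SE 0.36, limma adjusted p = 0.0285). Ago3 (chromosome 4, 126331704 to 126429556, minus strand) went from 0.0811 and 0.124 to 0.334 and 0.402 (log2 change 1.87, SE 0.38, limma adjusted p = 0.0379). Ago1 had 0.0534 and 0.0508 against 0.0736 and 0.0670, a log2 change of 0.43 (SE 0.32). No test of the difference between these genes was made. Centring ended the calls of Ago2 and Ago3 (limma adjusted p = 0.0858 and 0.135), while with the block and centring Ago2 was called (0.0421) and Ago3 was not (0.0568).

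Of the 6 genes of nonsense-mediated decay tested, 0 passed by limma (background 23.1%). Smg6, the endonuclease of the pathway, had 0.0930 and 0.108 (wild type) versus 0.254 and 0.242 (knockout). Its values did not overlap (log2 change 1.31, SE 0.32), with a limma adjusted p of 0.0524 and, with the block, 0.0278. Smg8 and Smg9, which regulate Smg1, had log2 changes of 0.82 (SE 0.53) and -0.38 (SE 0.94). Upf2 had 0.0872 and 0.166 against 0.0662 and 0.0888 (log2 change -0.65, SE 0.47). With the block and centring, Smg9 and Upf2 were called lower (limma adjusted p = 0.0389 and 0.0346). The paralogs Upf3a and Upf3b, which bridge to the exon junction complex, had changes of 0.68 (SE 0.48) and 0.49 (SE 0.97). Upf3b had 0.332 at 20 min and 0.0623 at 60 min within wild type.

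Among the Zc3h genes 1 of 8 rose (background 20.5%). Zc3h12b (chromosome X, 95711678 to 95932637, plus strand) went from 0.0726 and 0.0569 to 0.165 and 0.185 (log2 change 1.44, SE 0.34, limma adjusted p = 0.0482). Its paralog Zc3h12c had 0.416 and 1.39 against 0.530 and 1.13, a log2 change of 0.02 (SE 0.76). Zc3h4, which acts in nuclear RNA surveillance, had 0.113 and 0.149 against 0.324 and 0.358 (log2 change 1.40, SE 0.34). Its limma adjusted p was 0.0525, and 0.0243 with the block. Zc3h14, a nuclear poly(A)-binding protein, and Zc3h18, which links the cap to the exosome, had changes of 0.52 (SE 0.43) and 0.45 (SE 0.38). Zc3h6 had 0.410 and 0.391 against 0.254 and 0.317, lower in both, and was called only with the block and centring (limma adjusted p = 0.0396).

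In the authors' deposited table for degradation rate, 42 members were tested, with 11 higher and 1 lower at an adjusted p under 0.05, against 29.2% and 7.09% of all genes there. It shared 8 calls with those made here (88.9% of the 9 here and 66.7% of its 12), Exosc4 being the exception. The members it tested included Dcp1a and Zc3h10, each listed in only 1 knockout library, and not Exosc4. The values behind it are thus not the same set as those of the fit here. The 4 calls it made alone were Exosc7, Smg6, Zc3h4 and Skiv2l2. With labelling time as a replicate block these 4 were also called, and Lsm12 and Parn with them. Among the 59 cofactors, 39 were tested here, with 4 higher (Larp1, Nbas, Samd4b and Tnrc6c) and 1 lower (Ythdf3) by limma (background 20.5% and 2.57%), and a median log2 change of -0.03. With centring 0 of the cofactors were called by limma (background 0.560% higher and 1.05% lower). Their median was then -0.88, that of all genes -0.20. With the block and centring 1 of the cofactors was higher and 13 lower (background 13.9% and 22.4%). Their median was -0.33 without wild type at 20 min, and 0.30 with 0 calls without wild type at 60 min.

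Synthesis divided by degradation stands for the level of mature RNA under a steady state. In wild type it ranked Ago2 first among the members (41.1 at both times), ahead of Lsm12 (24.3) and Ago1 (23.4 and 23.3), and Dcp1b last (1.45). In the knockout Ago2 had 8.20 and 9.63, and Ago1 15.9 and 15.3. Exosc4 went from 7.85 at both times to 186 and 171, and Exosc8 from 3.79 to 1.08 and 0.515. The knockout ratio of Xrn1 was 1795 at 20 min and 13.7 at 60 min, against 4.34 in wild type. No test was made, as the 2 wild-type ratios are nearly always identical. In the knockout 0 of 42 members had equal ratios at both times, so these ratios cannot be read as a single level of mature RNA.

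Synthesis rates were compared in 41 members, with 0 called by limma and 0 at an unadjusted p under 0.05. Over all 5794 genes 0 were called (background 0%), and the unadjusted threshold was passed by 0.311%. A block for labelling time also gave 0 calls. The median log2 change was -0.02 over the members and -0.03 over all genes, and 36 of 41 members differed by less than 2-fold at both times, as did 5114 of the 5794 genes. The highest values were those of Exosc8 (log2 change 0.88, SE 0.85), Lsm6 (0.71, SE 0.47) and Zc3h7a (0.64, SE 0.49). Lsm6 had 0.283 and 0.332 (wild type) versus 0.673 and 0.371, and Zc3h7a 0.404 and 0.357 against 0.826 and 0.422. For both the 20 min knockout library was the high one. The lowest were Zc3h18 (-0.54, SE 0.43), Upf3a (-0.51, SE 0.56) and Lsm1 (-0.50, SE 0.54). None of these 6 was called, and with single libraries left out Exosc8 ran from -0.01 to 1.76, Lsm6 from 0.28 to 1.14 and Zc3h7a from 0.15 to 1.12. Likewise Zc3h18 ran from -0.85 to -0.22, Upf3a from -1.01 to -0.02 and Lsm1 from -1.02 to 0.01.

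In several members the synthesis rate differed by labelling time in the same direction in both genotypes. Edc3 had 1.07 (20 min) and 2.80 (60 min) for wild type, and 1.23 and 3.11 for the knockout. Zc3h12c had 1.49 and 4.99 for wild type and was likewise higher at 60 min in the knockout. In the opposite direction, Skiv2l had 0.853 and 0.237, and 0.791 and 0.196. Smg9 had 1.67 and 0.473, and 1.41 and 0.467, and Upf3b 1.07 and 0.202, and 0.749 and 0.218. These genes are named for that shared direction, which 14 of the 41 members did not have. Over the 41 members the log2 ratio of 60 to 20 min ranked alike in both genotypes (Spearman rho = 0.73, Pearson r = 0.80, as a description, against 0.73 and 0.33 over 5794 genes). It was above 0 in both genotypes for 12 members, below 0 in both for 15 and of opposite sign for the others, against 2103, 2460 and 1231 of the 5794 genes. A difference of over 2-fold in both genotypes occurred in 2 members upward (Edc3 and Zc3h12c) and 5 downward (Exosc8, Parn, Skiv2l, Smg9 and Upf3b), against 246 and 608 of the 5794 genes, shares close to the members'. Dcp1a had 1.13 and 6.09 in wild type and 3.60 in the knockout at 60 min only. The labelling times are single libraries in each genotype, so time and library cannot be told apart.

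**Figure D4:**
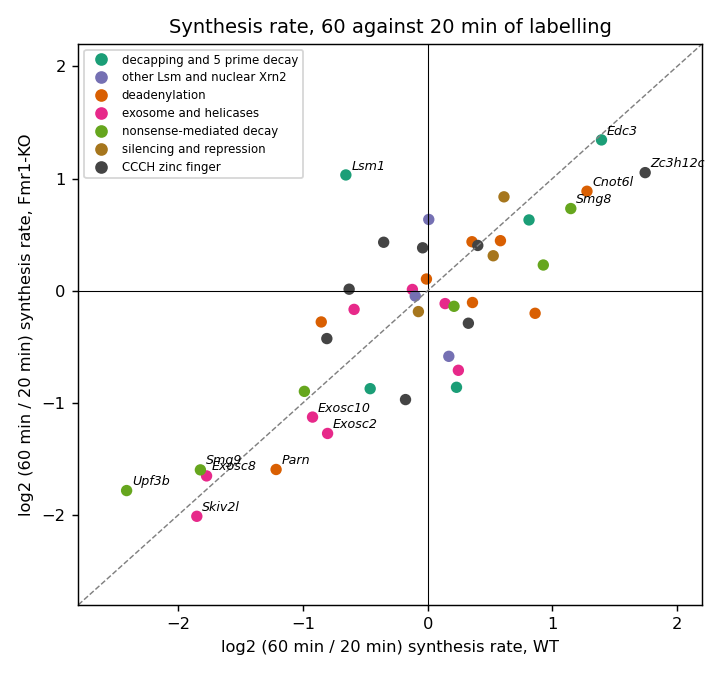
Log2 ratio of the synthesis rate at 60 min to that at 20 min in wild type (horizontal axis) and in Fmr1-KO (vertical axis) for 41 members, coloured by role, with the line of equality dashed. Edc3 and Zc3h12c lie high in both genotypes and Upf3b, Skiv2l and Smg9 low in both, while Lsm1 lies below 0 in wild type and above 0 in the knockout.

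Processing rates were compared in 37 members, with 0 called by limma (background 0%) and 3 at an unadjusted p under 0.05 (background 15.4%). The median log2 change was -0.36, as over all genes, and 26 of 37 lay below 0. Both knockout rates lay below both wild-type rates in 9 members (background 35.1%) and above both in 4 (background 11.5%). Centring removed a shift of -0.35 and brought the members' median to -0.01. With labelling time as a block, 1 member was called higher and 6 lower (background 6.26% and 19.3%), and with the block and centring only Lsm6 was called (background 7.14% higher and 6.40% lower).

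Of the members compared, Lsm6 had the highest change in processing rate. Its values were 1.72 and 2.01 (wild type) and 6.46 and 3.76 (knockout). Its log2 change was 1.41 (SE 0.47), with a limma adjusted p of 0.253 and, under the block, 0.0379. Upf2 followed with 4.77 and 9.08 against 10.9 and 12.7 (log2 change 0.84, SE 0.49), and then Cnot1 with 0.593 and 0.589 against 0.783 and 0.834 (0.45, SE 0.40). Cnot1 also had the lowest processing rate of all members in both wild-type libraries and at 20 min in the knockout. The lowest changes were in Exosc8, Cnot10 and Zc3h12c. Exosc8 had 6.69 and 1.96 against 3.01 and 0.491 (log2 change -1.57, SE 1.03, limma adjusted p = 0.513). Cnot10 had 14.2 and 7.86 against 4.20 and 3.35 (-1.49, SE 0.48, adjusted p = 0.245 by limma). Zc3h12c had 13.3 and 44.7 against 5.93 and 13.0 (-1.48, SE 0.74, adjusted p = 0.412 by limma). These values depended on single libraries: left out one at a time, they moved the change of Exosc8 between -2.88 (without the knockout at 20 min) and -0.27 (without the knockout at 60 min). That of Zc3h12c moved between -2.35 and -0.60 (without wild type at 20 and at 60 min), and that of Upf2 between 0.38 and 1.30 (the same libraries). The authors' deposited table gave -0.56 for Exosc8. It also gave 2.18 for Exosc9 and -2.45 for Zc3h6, beyond the changes named here, and called neither (limma adjusted p = 0.179 and 0.234). With labelling time as a block Exosc8, Cnot10 and Zc3h12c were all called lower (limma adjusted p = 0.0241, 0.0203 and 0.0221), along with Lsm12, Skiv2l2 and Upf3a.

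Base composition was examined as a property the symbol rule did not use. The median GC content of the members' transcripts (longest coding sequence per gene) was 48.3% in the 41 members, against 50.8% in 5555 genes. Across these members the GC content ranked with the degradation rate change at Spearman rho = 0.24 and with the synthesis rate change at -0.39, against 0.31 and -0.38 across all genes. Genes are not independent replicates, and these are descriptions. Reads may be shared with neighbours: the gene bodies of 21 members overlap another coding gene, 17 of them on the opposite strand, and the use of strand in counting is not stated. Among the called genes this holds for Ago2 (with Chrac1), Exosc4 (with Oplah) and Exosc8 (with Supt20), and it also holds for Skiv2l2 (with Plpp1). Paralogs such as Cnot7 with Cnot8, Cnot6 with Cnot6l and the Argonaute genes can share reads as well.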

How the data were processed

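The 10 samples comprised 4 labelled libraries, 4 inputs and 2 pull-downs of unlabelled RNA, and the rate table holds columns for the labelled libraries only. Synthesis, processing and degradation rates per gene were deposited by the authors as linear values without a stated time unit, in a table named for INSPEcT. The authors' deposited limma tables hold log2 fold changes of knockout against wild type, p-values and adjusted p-values, and 2 score columns that were not used, per the file headers. The submitters' processing notes list cutadapt, Bowtie2, TopHat2, HISAT2 and limma, with builds mm10, dm6 and sacCer3, without roles. Spike-in use and depth are not given in the sources used here, and 0 columns of per-sample values were left unused.

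Genes listed above 0 in all 4 libraries for a given rate entered limma 3.58.1 (R 4.3.3; lmFit, eBayes without trend) on log2 rates without pseudocount, with Benjamini-Hochberg adjustment over all genes and a threshold of 0.05. SE are limma's moderated ones. Samples of equal labelling time were paired, per the labels, in an alternative with time as a replicate block: the 60 to 20 min differences of both genotypes correlated over all genes with Spearman rho of 0.65 (degradation), 0.73 (processing) and 0.73 (synthesis). Other alternatives were centring, quantile normalization, dropping the lowest 25% of mean rates, a pseudocount at the 10th percentile (0.0462, 2.00 and 0.332 for degradation, processing and synthesis), an eBayes trend, the authors' tables and leaving out each library. Members and gene lists were chosen with earlier results of these data known. Genes were named if called for degradation rate or if among the 3 highest or 3 lowest changes of a rate, and the others were given by role. Coordinates and transcripts are from GENCODE M21 on GRCm38, to which 69 members were matched, Skiv2l2 by its RefSeq synonym. Where a gene had several RefSeq promoters, the most upstream was used. The values of 1 member are not reported here by name.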

Additional observations from a re-analysis of the deposited data

Results flagged for a closer look

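Among the members named for their change, Lsm1 had synthesis rate effects of opposite sign at the 2 labelling times. Over all members tested this held for 15 of 41 synthesis, 9 of 37 processing and 4 of 41 degradation rates. Over all genes it held for 2513 of 5794, 1062 of 5082 and 665 of 5716, shares near the members'. The synthesis rate of Lsm1 was lower in the knockout at 20 min (0.604 against 1.54, log2 change -1.35) and higher at 60 min (1.24 against 0.975, log2 change 0.34). Each time has 1 library per genotype, so the difference was not tested.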

How the results depend on the processing

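The members called for degradation rate numbered 9 and became 1 with centring, 2 with quantile normalization, 15 with labelling time as a replicate block, 14 with the pseudocount, and 0 to 3 with single libraries left out. The eBayes trend gave 13, the filter on low rates 12, the block with centring 11, and 12 came from the authors' deposited table. The share of all genes called moved as well. It was 23.1% in the main fit, 10.4% with quantile normalization, 33.2% with the pseudocount, 28.1% with the trend and 32.1% with the filter. Higher and lower calls were 0.560% and 1.05% with centring, 38.2% and 9.76% with the block, and 13.9% and 22.4% with both. The members' median change of 0.49 reversed to -0.36 with centring (also with the block) and -0.26 with quantile normalization (all genes -0.20 and -0.06), and ran from 0.23 to 0.83 with libraries left out. Calls for processing rate rose from 0 to 7 with the block (background 6.26% higher and 19.3% lower). With the block and centring the processing rate had 1 call (background 7.14% higher and 6.40% lower). Its median of -0.36 moved to -0.0135 with centring (also with the block), -0.0218 with quantile normalization and -0.26 with the pseudocount, and ran from -0.41 to -0.22 with libraries left out. Synthesis calls stayed at 0 in all 12 alternatives. Its median of -0.0212 was -0.0489 with quantile normalization, -0.11 with the filter, 0.0294 in the authors' deposited table and -0.13 to 0.0748 with libraries left out. For single named members, 200 values kept direction and side of the threshold, 52 lost the call, 12 gained one, and 2 reversed: the synthesis rate of Exosc8 without the 60 min wild-type library (-0.0111, range with libraries left out to 1.76) and of Lsm1 without the 20 min knockout library (0.0128, range from -1.02). All 52 losses fell on the 9 members called for degradation rate. Many of the 200 values were not called in the main fit and had no call to lose. The causes were not tested. The 2 libraries per genotype limit the precision, and depth is unknown.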
